A study of Mus musculus with 12 samples.

Results

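The Krüppel-like factors (KLFs) are transcription factors, and 10 of their genes, *Klf2*, *Klf3*, *Klf4*, *Klf6*, *Klf7*, *Klf9*, *Klf10*, *Klf11*, *Klf12* and *Klf13*, are described here in mouse B-ALL cells treated with the GSK3β inhibitor LY2090314. All 10 were found among the 41444 genes of the deposited table. The list was chosen by the measured difference of *Klf6* between LY2090314-treated and control cells, so the values of the members in this contrast are a description, no p-value is given for any of them, and where they lie against the threshold used for all genes is not a test of them. RNA was measured in *BCR*–*ABL1* transformed *Ctnnb1* fl/fl pre-B cells of mouse bone marrow, in 4 groups of 3 samples. The cells were grown out with IL7 and transformed by retroviral *BCR*–*ABL1*, after which IL7 was withdrawn. Both groups compared here carried the ERT2 vector without Cre, so that the floxed β-catenin alleles stayed intact, and both received 1 µM 4-OHT for 2 days. The control group (ERT2) had no other treatment, and the treated group (ERT2_Ly) also received 40 nM LY2090314 for 1 day per the labels, although a legend of the study gives a shorter exposure. The samples with Cre-ERT2 were not used, because the names of the remaining 6 columns do not tell their groups apart.

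Expression is given as rlog values, a log2 scale on which the authors scaled read counts for library size and drew the values of low-count genes towards the mean of the gene. Depth cannot be read from these values. Control samples are called 1, 2 and 3, and treated samples A, B and C. The column names of samples A and B carry the same library number, and the SD of their difference across tested genes was 0.186, against 0.253 for each of the other pairs of treated samples and 0.185 to 0.239 for the pairs of control samples. They were kept as separate samples, and calls lost when they are averaged are given beside the genes named. The β-catenin targets *Axin2* and *Nkd1* rose by 1.67 and 5.44 on the log2 scale with LY2090314, and *Myc* fell by 2.64 (adjusted p at most 1.5e-05, limma). The transcript of β-catenin itself, *Ctnnb1*, fell by 0.35 (adjusted p = 0.00030, limma). Of 9 B-lineage markers, 8 were lower at an adjusted p under 0.05 (limma) and none was higher by this rule. The remaining marker, *Cd79a*, was higher by 0.23 in the mean (adjusted p = 0.053, limma). The log2 of the summed level of the 9 markers was 16.26 to 16.29 in control and 15.64 to 15.79 in treated samples. The summed T-lineage markers lay between 0.56 and 0.58 and the stromal ones between 2.12 and 2.22 in all 6 samples. *Cebpa* and *Mpo* among the myeloid markers and *Hba-a1* and *Epor* among the erythroid ones were at or under 0, whereas the myeloid sum was higher with LY2090314 (6.38 to 6.50 against 5.81 to 6.02) and the erythroid sum lower (3.55 to 3.62 against 3.92 to 4.02). In these lists *Lyz2*, 1 of 5 myeloid markers, rose by 0.53 and *Hbb-bt*, 1 of 4 erythroid ones, fell by 0.44 (adjusted p at most 0.0023, limma), and the others were under the limit for testing. The part of these shifts in the values below was not tested, and in bulk RNA a change in the kinds of cells and a change in RNA per cell cannot be told apart.

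KLF proteins share a zinc finger domain at the C-terminal end that binds GC-rich and CACCC elements, and they differ in the N-terminal part that recruits partners. KLF2, KLF4, KLF6 and KLF7 mostly activate transcription. KLF3 and KLF12 are repressors that recruit CtBP, and KLF9, KLF10, KLF11 and KLF13 bind the corepressor Sin3A. In lymphocytes, KLF2 is known for quiescence and homing, KLF4 and KLF9 for restraining B cell division, KLF3 for B cell maturation and KLF13 for cytokine gene control in T cells.

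The promoters of the tested members with the 2 largest differences in each direction are shown first, since they carry the elements that KLF proteins themselves bind. The sequences are those of RefSeq on GRCm38.p6, read 5′ to 3′ on the strand of the gene, and cover the bases of the 250-base window before the RefSeq start that lie outside the GENCODE gene. Capitals mark matches, which can share bases, on either strand to the GC box GGGCGG, the CACCC box CACCC or the E-box CACGTG. *Klf6* is on the plus strand at chr13:5861239-5861481, *Klf13* on the minus strand at chr7:63938916-63939165, *Klf3* on the plus strand at chr5:64803271-64803387 and *Klf11* on the plus strand at chr12:24651121-24651273.
Klf6: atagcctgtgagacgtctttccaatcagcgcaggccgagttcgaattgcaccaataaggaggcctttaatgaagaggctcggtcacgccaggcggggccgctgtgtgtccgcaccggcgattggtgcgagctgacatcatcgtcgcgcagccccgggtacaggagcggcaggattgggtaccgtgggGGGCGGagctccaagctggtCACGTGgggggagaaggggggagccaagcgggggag
Klf13: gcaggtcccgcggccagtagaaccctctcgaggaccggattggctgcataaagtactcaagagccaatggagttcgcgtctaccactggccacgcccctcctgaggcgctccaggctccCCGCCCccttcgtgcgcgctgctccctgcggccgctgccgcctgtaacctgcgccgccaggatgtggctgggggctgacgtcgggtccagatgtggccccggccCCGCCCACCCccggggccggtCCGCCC
Klf3: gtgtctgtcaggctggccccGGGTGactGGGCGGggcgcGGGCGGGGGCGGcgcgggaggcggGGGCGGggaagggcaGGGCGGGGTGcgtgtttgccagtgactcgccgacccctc
Klf11: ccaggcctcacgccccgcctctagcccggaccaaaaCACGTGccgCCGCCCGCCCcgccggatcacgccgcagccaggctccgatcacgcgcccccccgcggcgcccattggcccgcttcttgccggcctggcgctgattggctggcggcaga

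Windows were found for 9 members, all but *Klf10*. Over the whole 250 bases, a GC box was present in 7 of the 9 windows, against 32.7% of 32851 mouse windows of the same length, and a CACCC box in 6 of 9, against 52.0%. *Klf3* had the most matches, with 6 GC boxes and 5 CACCC boxes. An E-box was present in 3 windows, those of *Klf4*, *Klf6* and *Klf11*, against 6.02% of all windows. The letters CTTTGAT or CTTTGAA of the TCF/LEF element were in none of the 9 windows and in 7.48% of all windows, and the CRE letters TGACGTCA were in none and in 1.55%. In *Klf13* and *Klf3* a CACCC match shares 1 base with a GC box. The member windows were GC-rich, from 59.2% to 78.4% outside *Klf12* (48.0%), where the median of all windows was 52.4%. The windows of *Klf12* and *Klf7* lie inside the longer GENCODE genes. The matches are letters in a window, and binding at these promoters was not analysed here.

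**Figure D1:**
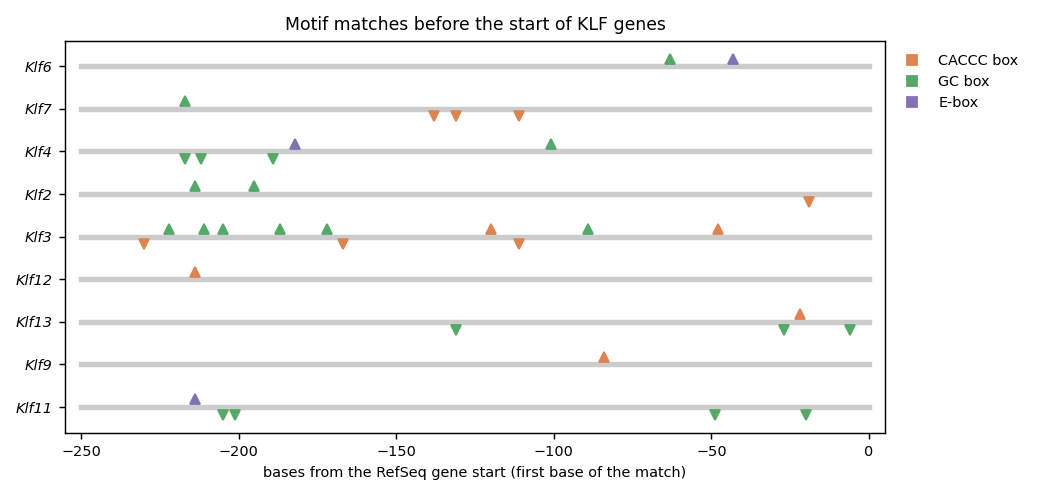
Matches to the CACCC box, GC box and E-box in the 250 bases before the RefSeq start of 9 KLF genes, by distance of the first base of the match from the start (triangles up, plus strand of the gene; triangles down, minus strand). Matches are densest in *Klf3* (6 GC boxes and 5 CACCC boxes) and sparse in *Klf12* and *Klf9* (1 CACCC box each).

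Of the 10 members, 9 had a mean rlog value of at least 3 across the 6 samples and entered the fit over 11536 genes. *Klf12*, at a mean of 2.85, did not. By the threshold applied to all genes (limma, Benjamini-Hochberg adjusted p under 0.05), and as a description only, *Klf6*, *Klf7* and *Klf13* lay on the higher side and *Klf2*, *Klf3*, *Klf9* and *Klf11* on the lower side, with *Klf4* and *Klf10* on neither. Of all genes tested, 24.8% were higher and 25.3% lower by the same rule, so that nothing is read from the count of members. All treated samples lay above all control samples in 3 of the 9, where 29.1% of all genes did so, and below them in 4, where 29.5% did so. The median difference of the 9 members was −0.15, and that of all tested genes 0.01. The median size of the difference was 0.41 for the 9 members and 0.24 for all genes. The genes lie on 10 different chromosomes.

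**Figure D2:**
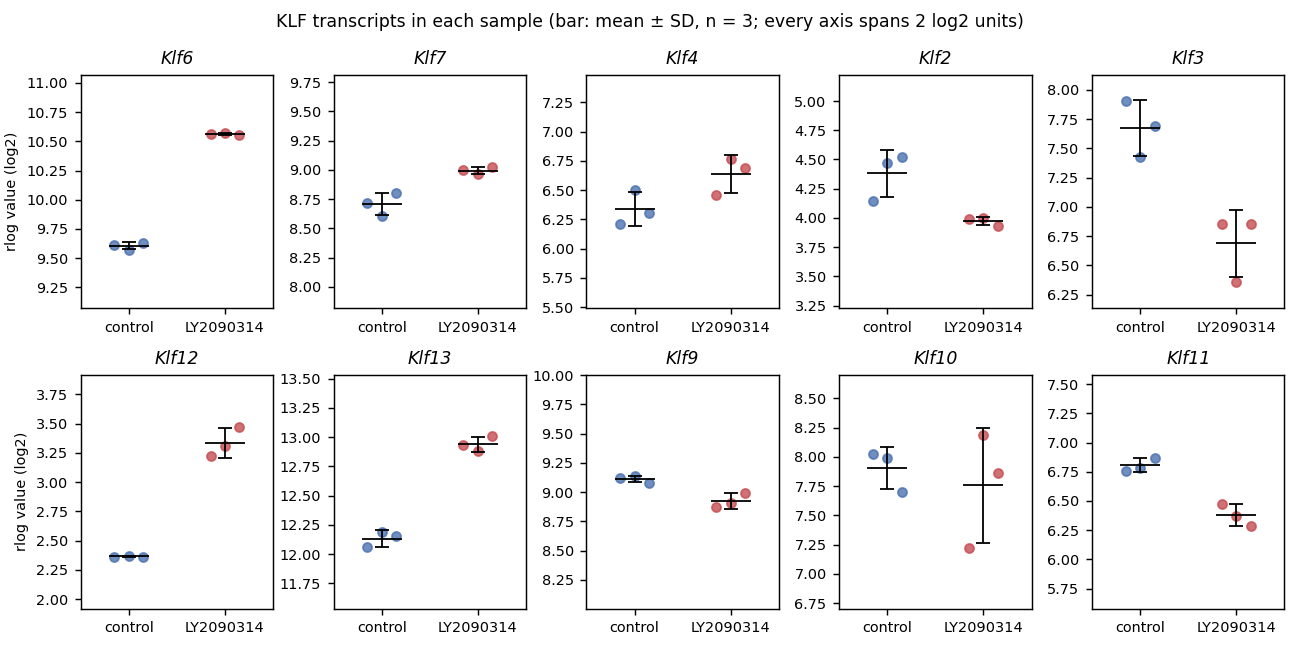
rlog values (log2) of the 10 KLF transcripts in 3 control (blue) and 3 LY2090314-treated samples (red), with the mean and SD of each group; every axis spans 2 log2 units. The groups are apart in 8 transcripts, *Klf12* among them, which was under the limit for testing. Of all tested genes, 29.1% lay wholly higher and 29.5% wholly lower in treated samples, so nothing is read from this count. The groups overlap for *Klf4* and for *Klf10*. The treated samples of *Klf10* range from 7.22 to 8.18.

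Among the activators, *Klf6* (ENSMUSG00000000078, chromosome 13 of GRCm38, 5861482 to 5870394, plus strand) encodes a factor known as a growth suppressor and for its induction by injury. Its rlog values were 9.61, 9.57 and 9.63 in control samples 1, 2 and 3 and 10.56, 10.57 and 10.55 in treated samples A, B and C. All treated samples lay above all control samples with a gap of 0.92, which was larger than the range within either group (0.061 and 0.020). Mean values were 9.61 ± 0.031 in control and 10.56 ± 0.010 in treated cells (SD, n = 3), so that *Klf6* was higher by 0.95 (standard error 0.046), or 1.94-fold. By size of the rise, *Klf6* was number 526 of 11536 genes. Its treated samples were the most uniform of any member.

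*Klf7* (ENSMUSG00000025959, chromosome 1, 64029447 to 64122282, minus strand), the closest relative of *Klf6* in the family, differed less. Its values were 8.72, 8.61 and 8.80 in control and 9.00, 8.97 and 9.02 in treated samples. The groups did not overlap, and the difference was 0.29 (standard error 0.069), or 1.22-fold. On the opposite strand, 3196 exon bases of *Klf7* are shared with the lincRNA *Gm26649*, which was not analysed here, and whether the counting used strand is not given in the sources used here.

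*Klf4* (ENSMUSG00000003032, chromosome 4, 55527143 to 55532466, minus strand), a reprogramming factor that restrains B cell proliferation, had values of 6.21, 6.50 and 6.30 in control and 6.46, 6.77 and 6.68 in treated samples. The lowest treated sample, A, lay below the highest control sample, 2, so that the groups overlapped. The difference was 0.30 (standard error 0.119), as large as that of *Klf7* with a wider spread, and it passed the threshold only when control sample 2 or treated sample A was left out.

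*Klf2* (ENSMUSG00000055148, chromosome 8, 72319033 to 72321656, plus strand), the lymphocyte quiescence and homing factor, was among the low transcripts. It was at 4.15, 4.47 and 4.52 in control and at 3.99, 4.00 and 3.93 in treated samples. Every treated sample was lower than every control sample, with control sample 1 only 0.15 above the nearest of them. The difference was −0.41 (standard error 0.112). *Klf2* no longer passed the threshold without control sample 2 or control sample 3, or with no lower limit on the mean. The rlog scale draws low values together and can understate differences of transcripts at this level.

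Of the CtBP-recruiting repressors, *Klf3* (ENSMUSG00000029178, chromosome 5, 64803388 to 64832901, plus strand) had the lowest difference of all members. Its values were 7.91, 7.43 and 7.69 in control and 6.86, 6.36 and 6.85 in treated samples. Treated sample B was lower than A by 0.50, about as much as the range among controls (0.48), and the groups were apart by 0.57. The mean went from 7.68 ± 0.24 to 6.69 ± 0.29 (SD, n = 3 each), a difference of −0.99 (standard error 0.171), which is 49.6% lower. Its place by size of the fall was number 229 of 11536 genes. *Klf3* shares 404 exon bases with *Gm20033* on the opposite strand, whose mean was −2.12 in both groups.

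*Klf12* (ENSMUSG00000072294, chromosome 14, 99870632 to 100284679, minus strand), the other repressor of this class, was the lowest member. It was at 2.36, 2.37 and 2.36 in control and at 3.22, 3.31 and 3.47 in treated samples. All treated samples were higher, by a mean of 0.97, which is in the direction opposite to *Klf3*. The control values are nearly identical, with an SD of 0.0061. The rlog scale draws values together at this level, so the small SD is not read as close replication. Of the 31-base words in its annotated transcripts, 6.10% also occur in transcripts of other genes, the largest share of any member, against 0% for *Klf6*, *Klf2* and *Klf9*.

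**Figure D3:**
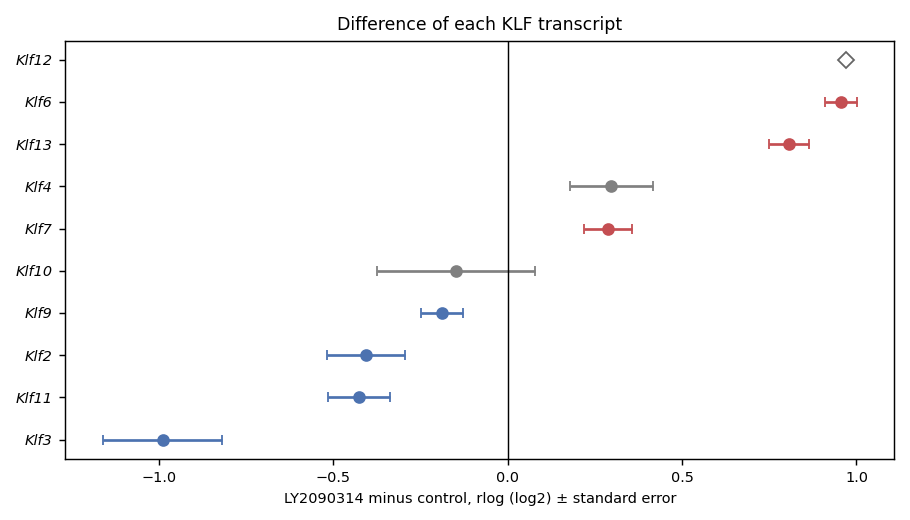
Difference of mean rlog value (LY2090314 minus control, log2) of each KLF transcript with its standard error from limma; red and blue, higher and lower at an adjusted p under 0.05; grey, not past it; open diamond, *Klf12*, which was not in the fit. The members spread from −0.99 (*Klf3*) to 0.97 (*Klf12*).

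Among the Sin3A-binding members, *Klf13* (ENSMUSG00000052040, chromosome 7, 63886351 to 63938915, minus strand) was the only member of its class with higher values. It was at 12.06, 12.19 and 12.15 in control and at 12.93, 12.88 and 13.01 in treated samples. The groups were apart by 0.69, against ranges of 0.135 and 0.127 within them. The mean went from 12.13 ± 0.069 to 12.94 ± 0.064 (SD, n = 3 each), a difference of 0.81 (standard error 0.057), or 1.75-fold. Of the other members tested, *Klf13* had the profile nearest to that of *Klf6* across the 6 samples. *Klf12*, under the limit for testing, was not compared.

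*Klf11* (ENSMUSG00000020653, chromosome 12, 24651274 to 24662789, plus strand) and *Klf10* (ENSMUSG00000037465, chromosome 15, 38291463 to 38300706, minus strand) are both known as TGF-β-inducible early genes. *Klf11* was at 6.76, 6.78 and 6.87 in control and at 6.47, 6.37 and 6.29 in treated samples. It was lower in every treated sample, with a difference of −0.43 (standard error 0.089). *Klf10* was at 8.02, 7.99 and 7.70 in control and at 7.22, 8.18 and 7.86 in treated samples. Here the groups overlapped, and treated sample B was the highest and treated sample A the lowest of all 6. Samples A and B, which carry the same library number, differed by 0.96 in *Klf10*, the most of any member, and by 0.0056 in *Klf6*, the least. The difference between groups was −0.15 (standard error 0.227) and changed sign, to 0.12, without treated sample A.

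*Klf9* (ENSMUSG00000033863, chromosome 19, 23141226 to 23168134, plus strand), which is induced by steroid and thyroid hormones in many tissues, differed little. It was at 9.12, 9.13 and 9.08 in control and at 8.87, 8.90 and 9.00 in treated samples. The groups were apart by 0.082, and the difference was −0.19 (standard error 0.061). *Klf9* lost its call without control sample 1, control sample 2, treated sample A or treated sample B, and when samples A and B were averaged.

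Levels of different genes were compared per length, as the rlog value minus log2 of the exon length in kb. *Klf13* was the most abundant member in control cells, at 9.22 ± 0.069 (SD, n = 3), followed by *Klf6* at 7.47 ± 0.031, *Klf9* at 6.84 ± 0.029, *Klf10* at 5.84 ± 0.18 and *Klf7* at 5.68 ± 0.096. *Klf4* (4.73 ± 0.15), *Klf11* (4.69 ± 0.060), *Klf3* (4.18 ± 0.24), *Klf2* (3.50 ± 0.20) and *Klf12* (−0.44 ± 0.0061) came after them. The control samples of *Klf10* and *Klf7* overlapped, as did those of *Klf4* and *Klf11*, so that these neighbours did not differ beyond their spread. In treated cells *Klf13* (10.03 ± 0.064), *Klf6* (8.43 ± 0.010) and *Klf9* (6.66 ± 0.065) kept the top places, and *Klf7* came before *Klf10*, again with overlap. *Klf3* and *Klf2* overlapped at the lower end, at 3.20 ± 0.29 and 3.09 ± 0.038. By length of the longest transcript, which is 5221 bases for *Klf3* against 11243 bases of exons, *Klf3* was at 4.30 in treated cells, apart from *Klf2*, and *Klf10* came before *Klf7* in both groups.

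On the linear per-length scale, *Klf13* made up 55.2% ± 1.4 (SD, n = 3) of the sum over the 10 members in control and 62.3% ± 1.4 in treated cells, and *Klf6* 16.4% ± 0.64 and 20.5% ± 0.73. The sum was higher with LY2090314 by 0.63 on the log2 scale, or 1.55-fold, with the highest control sample at 10.11 and the lowest treated sample at 10.68. It consists mostly of *Klf13* and of *Klf6*, the gene whose difference chose the list. The sum therefore does not describe the other members. Other KLF genes, such as *Klf16* described below, were not part of this sum, so it is not that of the whole family. The lengths assume that the same exons were used in both groups.

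**Figure D4:**
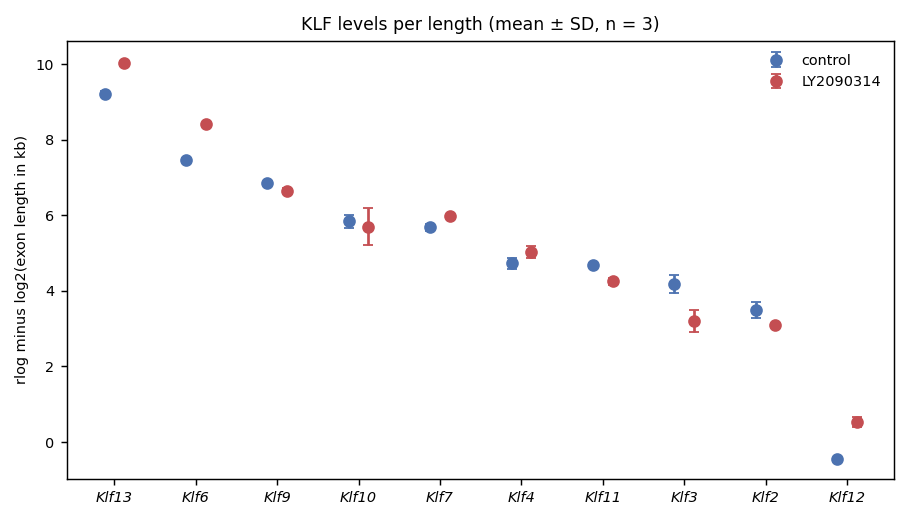
Level per length (rlog minus log2 of the exon length in kb) of the 10 KLF transcripts in control (blue) and LY2090314-treated cells (red), mean and SD of 3 samples each, in the order of the control levels. *Klf13* and *Klf6* are the highest members in both groups.

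The genes whose centred values over the 6 samples were nearest to those of *Klf6* were *Pnp2* (root mean square difference 0.0242), *Gldc* (0.0246), *Hist2h2be* (0.0345), *Il10ra* (0.0352) and *Rab31* (0.0354). They were higher with LY2090314 by 0.97, 0.94, 0.95, 0.97 and 0.94 on the log2 scale, where *Klf6* differed by 0.95. They encode a purine nucleoside phosphorylase, the glycine decarboxylase, an H2B histone, a chain of the interleukin-10 receptor and a small GTPase. With 6 samples in 2 groups this likeness is mostly that of the group difference, and *Pnp2* and *Hist2h2be* have close relatives with which shared reads were not measured here. The nearest of the tested members, *Klf13*, was at 0.0997, and the median of all tested genes at 0.49. *Klf12* was not part of this comparison.

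Of the 16 other genes of the KLF and SP family, 10 were under the limit for testing. Of the 6 tested, 1 rose and 2 fell, with a median difference of −0.17 against 0.01 over all tested genes. The counts of this and the following lists stand beside the 24.8% of all genes that were higher and the 25.3% that were lower. *Klf16*, a further Sin3A-binding factor, fell by 0.73 (log2, with a standard error of 0.074 and an adjusted p of 0.00012 by limma). *Klf8*, the CtBP-recruiting relative of *Klf3* and *Klf12*, was at 6.61 to 7.12 in control and 6.60 to 6.78 in treated samples and did not pass (adjusted p = 0.18, limma). *Sp2* rose by 0.22, but not past the threshold without control sample 2 or treated sample B, and *Sp4* fell by 0.26 with an adjusted p of 0.048 (limma) that was lost without any of control samples 1 and 2 and treated samples A and C, and with A and B averaged. *Sp5*, a Wnt target in other tissues, was at 0.88 in all 3 control samples and 0.99 to 1.10 in treated samples, under the limit for testing. *Klf14*, *Klf15*, *Sp7* and *Sp8* were listed at 0 in all 6 samples.

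Among the partners of KLF proteins, of 11 corepressors and coactivators tested, 2 rose and 4 fell, with a median difference of −0.12. The acetyltransferase gene *Kat2a* fell by 0.40 (standard error 0.062, adjusted p = 0.0011, limma) and *Sap30*, of the Sin3 complex, by 0.26. *Ep300* rose by 0.22 and *Hdac1* by 0.15, and both lost the call with some samples left out (*Ep300* without control sample 3, treated sample A or treated sample B; *Hdac1* without control sample 1, control sample 2 or treated sample B, and with median centring). With A and B averaged, neither passed, and 0 genes of the list were higher. The CtBP gene *Ctbp1* was lower by 0.14 and lost the call without any of the samples other than treated sample C and with A and B averaged. *Sin3a* itself did not pass (difference −0.17, adjusted p = 0.059, limma). Of 4 ubiquitin ligases that act on KLF proteins, *Fbxw7* rose by 0.37 (standard error 0.058, adjusted p = 0.0013, limma) and *Smurf1* by 0.31. *Wwp1* fell by 0.29, with an adjusted p of 0.049 (limma). *Smurf1* lost its call without control sample 2, control sample 3, treated sample A or treated sample B and with A and B averaged, and *Wwp1* without control sample 1, control sample 2, treated sample A or treated sample C.

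Of 10 kinases and factors upstream of *Klf2* and *Klf4*, 4 rose and 1 fell, with a median of −0.07. The count of 4 became 2 without any of the samples other than treated sample C, with median centring and with A and B averaged, when *Mef2d* (0.16) and *Foxo3* (0.14) did not pass. *Mef2b* fell by 1.89 (standard error 0.134, adjusted p = 1.8e-05, limma), from a range of 5.86 to 6.29 to a range of 4.11 to 4.35. *Mef2a* rose by 0.33 and *Foxo1*, a forkhead factor that activates *Klf2* in lymphocytes, by 0.27 (adjusted p = 0.0072, limma). *Mef2c* and the kinase genes *Map2k5* and *Mapk7* did not pass.

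Several KLF genes belong to the immediate early response. Of 13 tested genes of that response outside the family, 4 rose and 4 fell, with a median of −0.15. *Btg2*, an antiproliferative gene, rose by 2.44 (standard error 0.060, adjusted p = 7.7e-08, limma) and *Ier5* by 0.89. *Jund* fell by 1.44 and *Egr1* by 0.49. *Atf3*, higher by 0.32, lost its call without treated sample A or any control sample and with A and B averaged, and *Dusp1*, lower by 0.36, without treated sample B or any control sample. As among the KLF members, genes of this list were found on both sides, and *Fos*, *Fosb*, *Ier2*, *Nr4a1* and *Zfp36* did not pass.

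Of 6 tested genes of lymphocyte trafficking and the KLF2-linked surface programme, 4 rose and 1 fell, with a median of 0.92 against 0.01 over all genes. The activation marker gene *Cd69* rose by 1.74 (standard error 0.056, adjusted p = 3.0e-07, limma), from a range of 8.34 to 8.42 to a range of 10.09 to 10.16, and the sphingosine receptor gene *S1pr4* fell by 0.51. *S1pr1*, a direct KLF2 target in T cells, was higher by 0.30 with an adjusted p of 0.043 (limma). It lost the call without any of the samples other than treated sample B. The call was also lost with median centring, quantile normalization, no lower limit or a limit of 5. *Klf2* itself was lower by 0.41 in the same samples.

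Among 7 tested cell cycle genes linked to KLF4 and KLF6, 3 rose and 1 fell, with a median of 0.25. *Cdkn1a*, the gene of the inhibitor p21 and a target of both factors in other cells, rose by 0.81 (standard error 0.066, adjusted p = 4.0e-05, limma). The D cyclins went in opposite directions, with *Ccnd2* rising by 0.92 and *Ccnd3* falling by 1.09. *Cdkn1b*, higher by 0.25, lost its call without treated sample A or B and with both averaged. The count of 1 that fell was 3 with median centring or quantile normalization and 2 without control sample 2 or treated sample A. Of 11 tested TGF-β pathway genes linked to KLF6, KLF10 and KLF11, 3 rose and 2 fell, with a median of 0.03. *Eng*, the endoglin gene and a KLF6 target in vessels, fell by 2.16 (standard error 0.080, adjusted p = 6.6e-07, limma) and *Tgfb1* by 0.68. *Smad3* rose by 1.80 (standard error 0.177, adjusted p = 0.00010, limma) and *Tgfbr2* by 0.82. Of the inhibitory genes, *Tgif1* rose by 0.33 (adjusted p = 0.0048, limma), and *Smad7*, *Ski* and *Skil* did not pass.

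**Figure D5:**
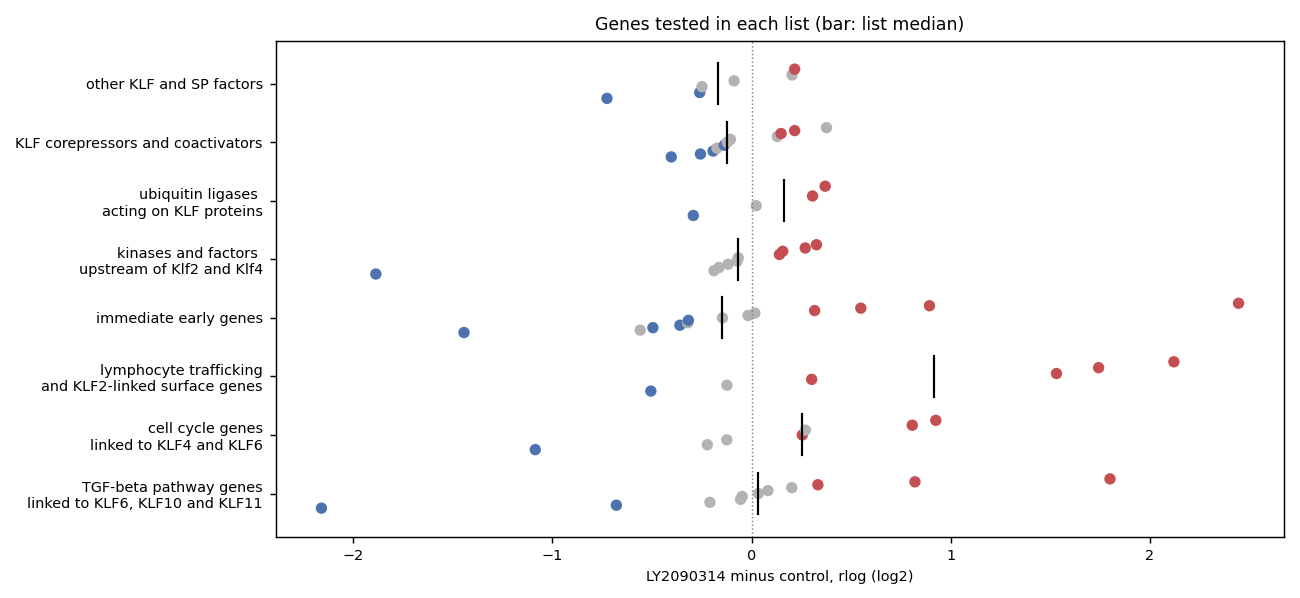
Difference of mean rlog value (LY2090314 minus control, log2) of each tested gene in 8 lists of KLF relatives, partners, regulators and linked genes; red and blue, higher and lower at an adjusted p under 0.05 (limma); grey, not past it; black bar, median of the list. The lists hold genes on both sides of 0, with the trafficking list the furthest to the right (median 0.92).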

How the data were processed

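RNA was measured by stranded, paired-end sequencing of polyadenylated RNA in 12 samples. Read quality was checked by the authors with FastQC 0.11.9, SAMtools 1.7 and Picard 2.23.8. Salmon quantification and STAR alignment to GRCm38 (GENCODE vM24) were followed by DESeq2 1.30.1, and the authors deposited rlog (log2) values for 41444 genes. Which samples and options entered the rlog step is not given in the sources used here. The values hold no read counts, so depth is unknown, no counting interval was computed and count models were not used.

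Columns were matched to groups by name. The 6 columns that combine Cre and LY in their names were not used, and the fit held the ERT2 and ERT2_Ly groups. The members and the gene lists were chosen with earlier results of these data known. Genes with a mean of at least 3 entered the limma fit (limma 3.58.1, R 4.3.3, mean-variance trend, Benjamini-Hochberg adjustment, threshold 0.05). The same fit was also run on simulated data with independent noise and few changed genes. These settings differ from the data, so the simulation is not a check of the calls given here. A legend of the study calls the replicates mice, but the columns do not show which mouse. An exact permutation test of 3 against 3 samples cannot give a p under 0.10, so none was used. Gene positions and exon lengths are those of GENCODE vM21 on GRCm38. Promoter windows come from RefSeq on GRCm38.p6. Text names all members, in each list up to 2 called genes with the largest rise and fall, the 5 genes nearest to *Klf6* and treatment checks. A gene of the trafficking list that this rule names is not reported here. Further listed genes were named after their values were seen. Alternatives were no trend, no lower limit, a limit of 5, median centring, quantile normalization, a limit of 1 on the difference, each sample left out, samples A and B averaged, longest-transcript lengths, and profiles scaled by SD.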

Additional observations from a re-analysis of the deposited data

How the results depend on the processing

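The number of genes called was 5778 and moved to 693 with a limit of 1 on the log2 difference, under which 0 members were called higher and 0 lower, since the largest difference among the 9 tested members was −0.99. With each sample left out in turn, 4734 to 6228 genes were called, 3 to 4 members higher and 2 to 4 lower; the count of 2 is without control sample 2, when *Klf2* and *Klf9* did not pass. Without a lower limit on the mean, *Klf12* was called higher as well and *Klf2* was not called, and with a limit of 5 *Klf2* was not tested. Median centring, quantile normalization and the fit without a trend left all 9 member calls as they were. Over 9 alternatives (other scaling, a sample left out, A and B averaged), *Klf6* differed by 0.93 to 0.97, *Klf13* by 0.77 to 0.84 and *Klf3* by −1.11 to −0.82, and *Klf10* was the only member whose difference changed sign, in 1 of them. Of 192 counts over the 8 lists and their alternatives other than the size limit, 149 were within 1.5 times the count reported.

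By length of the longest transcript, 8 of 10 members kept their place in the order of control levels, with *Klf3* and *Klf4* exchanged, and 8 to 10 did so with each control sample left out, with 8 without control sample 2. With profiles divided by their SD, 0 of the 5 genes nearest to *Klf6* were the same. No paired analysis was possible because the replicate numbers of the titles could not be matched to columns. Depth is unknown, so which low values it limits, such as those of *Klf12* and *Klf2*, was not assessed.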
